A study of Mus musculus with 2 samples.

Results

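Mir143 and Mir145a are a pair of mouse miRNA genes that lie next to each other on 1 strand of chromosome 18. Their rows were found by gene identifier, and they are 2 of the 1973 miRNA genes counted. Small RNAs of less than 30 nucleotides were sequenced from kidneys of B6NCrl mouse embryos at 14.5 days of gestation. There was 1 group, embryonic kidney, with 2 replicates of 2 kidneys each, no treatment and no altered genotype in the labels. Collection days differed between the replicates. The labels give each sample as a single pup, yet also as both sexes together and under a donor identifier that the samples share, so how many embryos each holds is not settled. Each SD therefore describes the spread between these 2 samples or libraries, part of which may be technical. Each p-value compares the same 2 libraries, and that of a binomial or Fisher's exact test takes in counting error alone.

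A miRNA gene is transcribed into a hairpin, from which Drosha and Dicer cut a short RNA that guides Argonaute proteins to messenger RNAs with a matching seed. miR-143 and miR-145 come from 1 locus but do not share a seed. They are known as the miRNAs of smooth muscle, where serum response factor and its coactivator myocardin drive the locus and the pair favours the contractile state, in part through repression of factors such as Klf4 and Elk1. Fibroblasts and pericytes also contain them. At the stage studied, the kidney holds branching ureteric epithelium, forming nephrons, stroma and growing vessels. Vessel walls and the ureter are sites of smooth muscle once mature, and how far smooth muscle had formed in these samples was not tested. The tables hold miRNA genes only, so the cells that supplied these reads cannot be told from them, and in whole tissue fewer cells of a type and less RNA per cell cannot be told apart.

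In GENCODE release M21 on mm10, Mir143 (ENSMUSG00000065445.2 in the counts) is at chromosome 18, 61649196 to 61649258, on the minus strand, and Mir145a (ENSMUSG00000065592.1) is at 61647825 to 61647894 on the same strand. The hairpins are annotated at 63 and 70 bases, with 1301 bases between them, and Mir143 is the upstream one in the direction of transcription. No other annotated gene overlaps either hairpin, so both are intergenic in this release. Carmn, a long noncoding RNA gene regarded as the precursor of the cluster in human cells, runs on the same strand from 61649625 to 61665537, and its annotated end is 366 bases upstream of Mir143. Bvht, a noncoding RNA described in mouse cardiac commitment, runs on the opposite strand from 61639542 to 61647472 and stops 352 bases from Mir145a. There were 0 other counted miRNA genes within 10 kb.

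Both genes were detected, defined as at least 10 counts in each replicate, a level that 345 genes reached. The depth was 5202588 counts on the strand of the genes in replicate 1 and 3683978 in replicate 2. CPM is counts per 1000000 of these counts. Gene totals leave out reads that mapped to several places, which were 28.3% of all reads in replicate 1 and 27.5% in replicate 2. A run of 21 bases common to another counted miRNA hairpin, on either strand, was found for neither gene. For Mir143 the longest stretch shared with any other was 11 bases. For Mir145a it was 17 bases, shared with Mir145b, a gene elsewhere on chromosome 18 that had 0 counts in each replicate, so its level could reach 0.577 CPM in replicate 1 and, with fewer reads, 0.814 CPM in replicate 2.

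By read counts, Mir143 was among the abundant miRNA genes of the embryonic kidney libraries, and Mir145a stood far lower in both. Mir143 had 93068 counts in replicate 1 and 71472 in replicate 2, which is 17889 CPM (95% exact Clopper-Pearson interval 17775 to 18003) and 19401 CPM (19260 to 19542). Its mean was 18645 ± 1069 CPM (SD, n = 2). Replicate 2 was the higher library, and the counting intervals of the 2 libraries did not overlap. Mir143 ranked 16 of the 345 detected genes in replicate 1, 15 in replicate 2 and 16 by its mean.

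Mir145a had 1859 counts in replicate 1 and 1503 in replicate 2, which is 357 CPM (341 to 374) and 408 CPM (388 to 429). Its mean was 383 ± 35.8 CPM (SD, n = 2). Here too replicate 2 was the higher library and the counting intervals did not overlap. Mir145a ranked 119 in replicate 1, 113 in replicate 2 and 116 by its mean, with 99 detected genes between the pair in the order of mean CPM. Its mean was above the median of the detected genes, 114 CPM. All intervals cover counting error only, since PCR copies of a molecule cannot be told apart here.

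**Figure D1:**
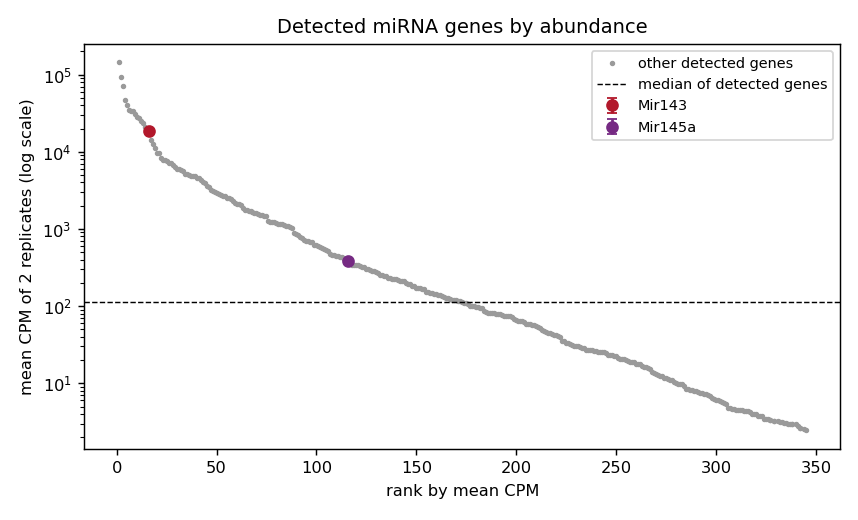
Mean CPM of the 2 replicates (log scale) for each of the 345 detected miRNA genes against rank. Bars on the red and purple points span the replicates and are shorter than the points. Mir143 lies at rank 16 and Mir145a at rank 116, both above the dashed median of 114 CPM.

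Both genes together held 1.82% of counts in replicate 1 (95% exact binomial interval 1.81 to 1.84) and 1.98% (1.97 to 2.00) in replicate 2. The mean share was 1.90% ± 0.110 (SD, n = 2). Nearly all of this was Mir143. It made up 98.0% of the summed counts of the pair in replicate 1 (98.0 to 98.1) and 97.9% in replicate 2 (97.8 to 98.0). All reads of the pair were on their own strand. The opposite strand held 0 counts at each gene in each replicate, against 1.93% of counts over all genes in replicate 1 and 1.80% in replicate 2. These shares pool all genes, and a 0 was not particular to the pair. Mir10b, Mir99a and Mir322, all more abundant than Mir143, also lacked opposite-strand reads in both libraries. Mir10a, the most abundant gene, had 3 such reads in the first library and 2 in the second. For Mir145a, 0 counts allow an opposite-strand share of up to 0.161% in replicate 1 and 0.200% in replicate 2.

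The ratio of Mir143 to Mir145a was of like size in both libraries. It was 50.1 in replicate 1 (95% exact interval 47.8 to 52.4) and 47.6 (45.2 to 50.1) in replicate 2. The ratio averaged 48.8 ± 1.78 (SD, n = 2). On the log2 scale the ratio of counts was 5.65 and 5.57, a mean of 5.61 ± 0.05. The odds ratio of replicate 1 over replicate 2 was 1.05 (95% interval 0.982 to 1.13), and a two-sided Fisher's exact test of the 4 counts gave p = 0.145. A difference in the ratio between the libraries was thus not detectable at this depth, and the interval leaves room for one of up to 1.13-fold. Each count is a read of a short RNA, so hairpin length need not scale it. Per annotated hairpin base, Mir143 had 1477 counts in replicate 1 and 1134 in replicate 2, Mir145a had 26.6 and 21.5, and the ratio was 55.6 and 52.8. The tables sum both arms of a hairpin, so the ratio compares reads of the genes and not single mature strands. Whether RNAs of both genes were turned into reads equally well was not tested, so the ratio is one of reads, not of molecules.

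Among genes of like abundance, Mir143 was set apart from most neighbours in the order by more than the range of the replicates. The next gene above it, Mir99b, had 20896 CPM in replicate 1, against 17732 CPM in replicate 2, and the ranges of Mir143 and Mir99b overlapped. Mir30e and Mir23b, the genes above that, averaged 20748 ± 1188 and 23449 ± 2660 CPM, with ranges that did not overlap that of Mir143. Below it, Mir429, an epithelial miRNA of the miR-200 family, averaged 14037 ± 1789 CPM, Mir20a 12589 ± 313 CPM and Mir30a 11164 ± 1377 CPM (SD, n = 2 each), all without overlap. Around Mir145a the order was not resolved. Mir671, Mir339 and Mir132 stood above it at 427 ± 38.8, 413 ± 49.9 and 399 ± 61.2 CPM, and Mir134, Mir434 and Mir187 below it at 360 ± 40.9, 344 ± 81.8 and 344 ± 89.3 CPM. The range of each of these 6 genes overlapped that of Mir145a.

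**Figure D2:**
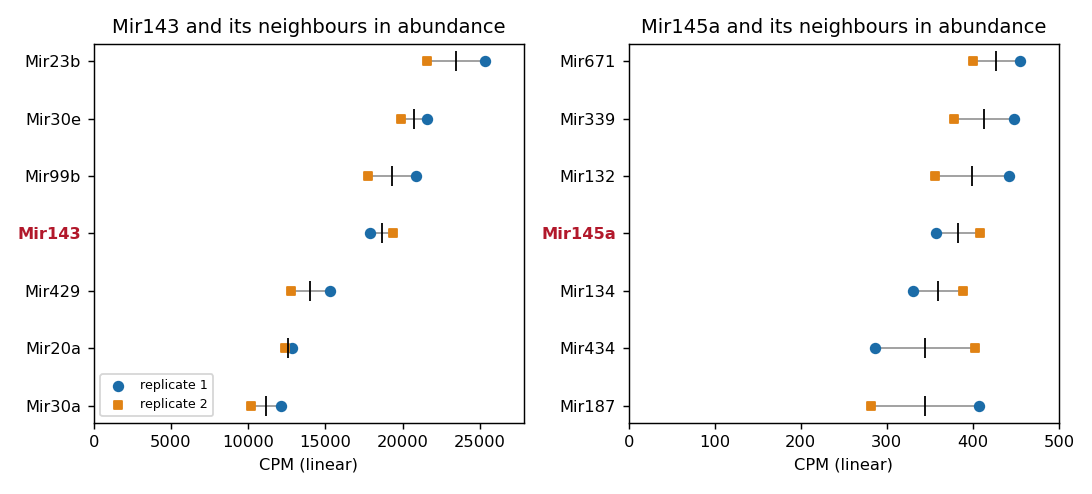
CPM (linear scale) of Mir143 (left) and Mir145a (right) with the 3 detected genes next above and below each. Circles are replicate 1, squares replicate 2 and ticks the mean. The range of Mir143 overlaps only that of Mir99b among its 6 neighbours, and that of Mir145a overlaps all 6.

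Likeness of pattern was measured as the Euclidean distance of log2(CPM + 1) over the 2 libraries, which weighs level and the difference between replicates together. The 3 genes nearest to Mir143 were Mir99b at a distance of 0.26, Mir30e at 0.27 and Mir23b at 0.52. Each of these was higher in replicate 1, with log2 ratios of replicate 1 over replicate 2 of 0.23, 0.11 and 0.23, whereas Mir143 was lower there. The 3 nearest to Mir145a were Mir134 at 0.13, Mir125b-2 at 0.22 and Mir186 at 0.26, with log2 ratios of -0.24, -0.16 and -0.25, the same direction as Mir145a. With 2 libraries these distances describe levels more than patterns.

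Between the libraries, both genes were lower in replicate 1 by a small margin. After scaling by TMM factors, the log2 ratio of replicate 1 over replicate 2 was -0.12 for Mir143 (95% exact interval -0.14 to -0.11), or 0.918-fold, and -0.20 for Mir145a (-0.30 to -0.10), or 0.872-fold. In a two-sided exact binomial test, adjusted over all 345 detected genes by Benjamini-Hochberg, the adjusted p was 2.64e-64 for Mir143 and 2.37e-04 for Mir145a. This test takes in counting error alone and compares 2 libraries, and it called 53.6% of all detected genes, 26.7% as lower and 27% as higher in replicate 1. With the spread between replicates estimated by edgeR, a coefficient of variation of 19.9%, the edgeR exact test called neither gene, with an adjusted p of 1.0 for each. That spread comes from the same 2 libraries, so few genes could pass, and 2 of 345 did. Both shifts were smaller in size than the median absolute log2 ratio of all detected genes, 0.24. The size of the shift was smaller in 103 genes than in Mir143 and in 154 genes than in Mir145a. With a minimum log2 ratio of 1 in either direction added, 3.19% of genes were called, and neither member was among them.

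**Figure D3:**
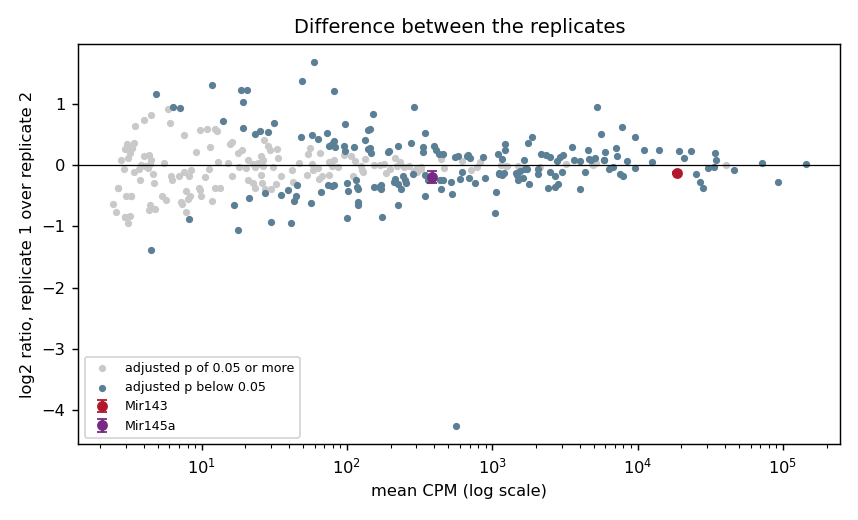
Log2 ratio of replicate 1 over replicate 2 against mean CPM (log scale) for the 345 detected genes. Bars on Mir143 and Mir145a are 95% exact intervals, narrower than the point for Mir143. Both lie just below 0, at -0.12 and -0.20, inside the band of the other genes.

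Markers of some other cell types differed between the libraries by more than the pair did. Mir122, the main miRNA of hepatocytes, had 56.3 CPM in replicate 1, against 1074 CPM in replicate 2. It was thus lower in replicate 1, as both members were, while the summed erythroid markers Mir451a, Mir144 and Mir486 were higher there, with a sum of 161 CPM against 77.6 CPM in replicate 2. Mir126a, a marker of endothelium, which lines the vessels that smooth muscle wraps, had 45180 CPM in replicate 1, against 47759 CPM in replicate 2, a log2 ratio of -0.09. The 5 epithelial genes of the miR-200 family summed to 26800 CPM in replicate 1, against 23488 CPM in replicate 2. They did not all move alike. The exact binomial test called 4 of them higher in replicate 1, and Mir429, the most abundant, had the largest log2 ratio, 0.25. Mir141 went the other way, with a log2 ratio of -0.08, and was not called. The part of these markers in the small shifts of Mir143 and Mir145a was not tested.

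Markers of striated muscle, which shares some of its regulators with smooth muscle, were scarce beside the pair. The 8 counted genes of the list summed to 82.7 CPM in replicate 1, against 61.3 CPM in replicate 2. Of these, 2 were detected, Mir206 of skeletal muscle at 62.9 ± 13.3 CPM and Mir499 of heart and slow muscle at 3.25 ± 0.784 CPM. The defining genes Mir1a-1, Mir133a-1 and Mir133a-2 had 0 counts, Mir133b had 13 and 4, Mir208a 8 and 4, and Mir208b 19 and 7 in replicates 1 and 2. Mir1a-1 and these Mir133 genes have 21 bases in common with other miRNA genes, so their reads may be among those that mapped to several places. Mir1a-2 was not analysed here.

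The level of Mir143 was next compared with miRNAs that have been studied in vascular smooth muscle. Of 20 listed genes, 16 were counted and 12 detected, and the other 4 were not analysed here. The 12 had a median of 374 CPM, against 114 CPM for all detected genes. Among them, Mir26a-1, Mir26a-2 and Mir24-2 share sequence with another gene, so their counts, and with them this median, are uncertain. Mir10a, a Hox cluster gene that regulates smooth muscle differentiation and is present in many tissues, at 144007 ± 2037 CPM, and Mir322, at 30535 ± 675 CPM, stood above Mir143. Mir21a, which promotes growth of smooth muscle cells, averaged 7260 ± 543 CPM, Mir22 3045 ± 167 CPM and Mir28a 1112 ± 65.7 CPM (SD, n = 2 each). Mir221 and Mir222, a pair that promotes proliferation of smooth muscle cells, averaged 459 ± 51.6 and 288 ± 13.4 CPM. Mir145a thus lay between these 2 genes. Mir204 was at 146 ± 14.8 CPM. Mir133a-1, Mir133a-2, Mir1a-1 and Mir208a were not detected. Between the libraries, 4 of the 12 detected genes passed the exact binomial test as higher in replicate 1, among them Mir21a at a log2 ratio of 0.15. Another 4 passed as lower, among them Mir221 at -0.24. Of all detected genes, 27% were called higher and 26.7% lower there, so these counts lay near the background. The median of the list was -0.01, against -0.02 for all detected genes.

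Of 16 genes listed here as stromal, all 16 were counted and 14 detected, with a median of 436 CPM. Whether the listed genes mark stroma in these samples was not tested. Mir99a at 34825 ± 1501 CPM and Mir130a at 25183 ± 1740 CPM stood above Mir143. Mir100 at 6329 ± 171 CPM and Mir214, which is made from the antisense transcript of Dnm3 in mesenchymal cells, at 6006 ± 667 CPM, came next. Mir140, a cartilage miRNA, was at 2058 ± 141 CPM, Mir181a-1 at 1561 ± 66.1 CPM, Mir125b-1 at 529 ± 120 CPM and Mir125b-2 at 344 ± 25.3 CPM. The last 3 of these share sequence with another gene, as do 4 further detected genes of the list, so their counts are uncertain. Mir145b and Mir29b-1 were not detected. Of the 14 detected genes, 2 passed the exact binomial test as higher in replicate 1 and 8 as lower, against 27% and 26.7% of all detected genes. The median log2 ratio was -0.12, against -0.02 for all detected genes. That test takes in counting error alone, and the edgeR exact test called 2 of all 345 genes.

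**Figure D4:**
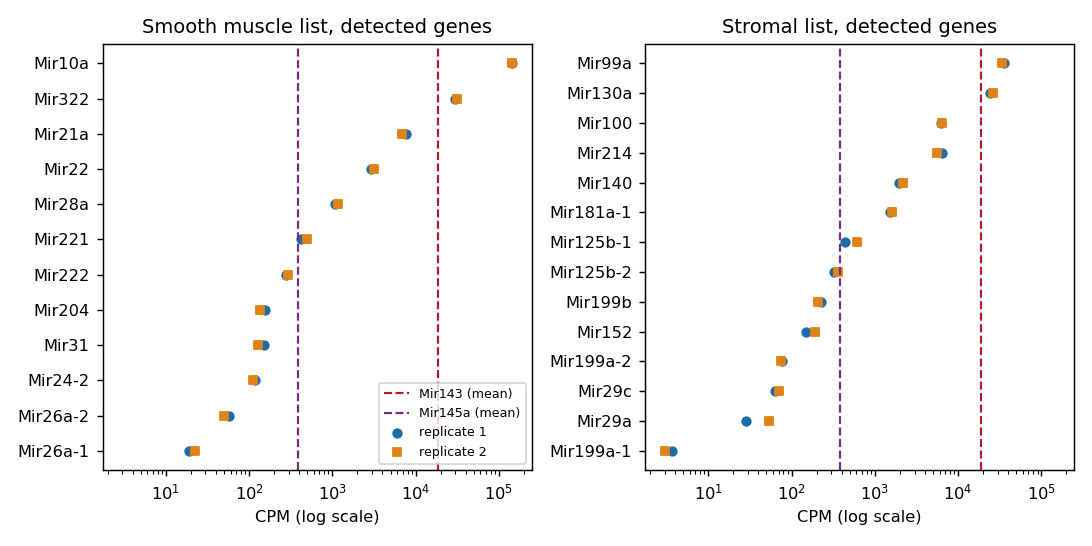
CPM (log scale) of the detected genes of the smooth muscle list (left) and the stromal list (right). Circles are replicate 1 and squares replicate 2, and dashed lines mark the mean of Mir143 (18645 CPM) and Mir145a (383 CPM). In each list 2 genes lie above Mir143.

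Set beside other neighbouring miRNA genes, the ratio within the pair was wide, at place 16 of 89. All adjacent miRNA genes on 1 strand with starts within 10 kb were taken, both detected, which gave 89 pairs, and a gene can stand in 2 of them. The higher gene of a pair exceeded the lower by a median of 2.81 on the log2 scale, or 6.99-fold, with quartiles of 1.28 and 4.60 and extremes of 0.16 and 8.52. The Mir143 and Mir145a pair, at 5.61, lay above the upper quartile. Directly above it stood Mir369 over Mir412 at 5.65 and Mir341 over Mir1188 at 5.69, all of them genes of the imprinted Dlk1-Dio3 region. Directly below stood Mir100 over Mirlet7a-2 at 5.46, in which Mirlet7a-2 shares sequence with another gene, and Mir541 over Mir377 at 5.28.

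Of the 15 pairs above it, 8 hold a gene with a run of 21 bases found in another miRNA gene, and such genes can lose reads to the tally of several mapping places. Among the 64 pairs with no such run, a set chosen after the data were examined, the pair took place 8, and the median was 2.66. The gene nearer the start of transcription was the higher one in 48 of the 89 pairs, as in Mir143 over Mir145a. The ratio of this pair changed between the libraries by 0.07 on the log2 scale, less than the median change of 0.19, and 19 pairs changed less. Many pairs have a lower gene with far fewer counts than Mir145a, such as Mir1188 with 22 and 16. Counting error therefore adds more to their changes than to that of this pair.

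**Figure D5:**
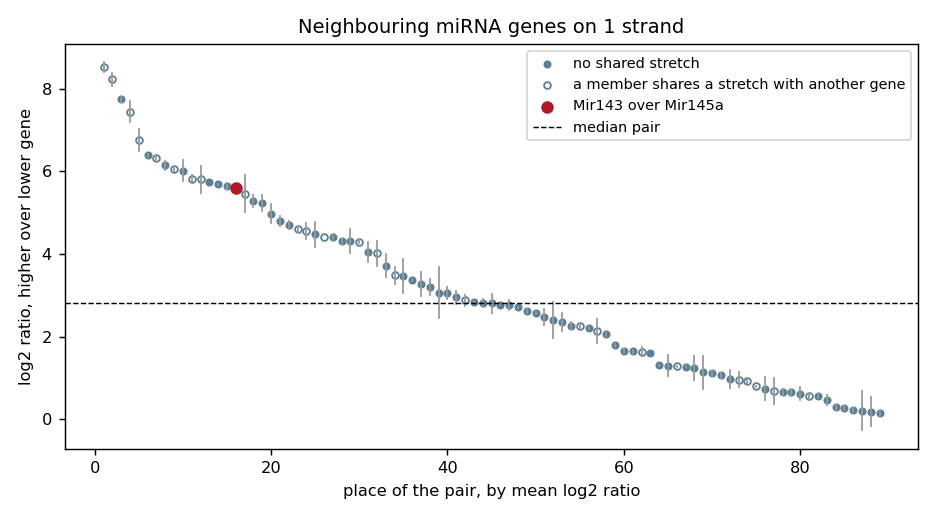
Log2 ratio of the higher over the lower gene for the 89 neighbouring pairs, ordered by the mean. Lines span the 2 replicates, open points are pairs in which a gene has a run of 21 bases in common with a further gene, and the dashed line is the median of 2.81. Mir143 over Mir145a (red) takes place 16.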

How the data were processed

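For each library the authors deposited raw read counts of annotated miRNA genes, not normalized, in 3 columns (both strands, the strand of the gene, the opposite strand) under 4 tallies that name no gene and stayed out of totals and tests. Per the file headers, the build was mm10 and the annotation GENCODE M4; the aligner and the counter were not given in the sources used here. Tallies of reads that mapped to several places held 28.3% and 27.5% of all reads.

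Own-strand counts were analysed. Symbols and positions came from GENCODE M21 on mm10, which matched 1894 of 1973 identifiers without their version. Both members carry a later version there, so the counted interval may differ. Runs of 21 common bases were searched in the M21 hairpins.

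With 1 group no contrast could be fitted. The replicates were compared by an exact binomial test given TMM-scaled totals, called at an adjusted p below 0.05, after a check on simulated counts. Besides planted changes, the simulated counts held counting noise alone, so the check does not cover the spread between these libraries. The difference over all detected genes was beyond counting noise (chi-square of 46611, 344 degrees of freedom). The replicates were thus not counted as 1 library given in duplicate, and whether they are separate animals is not settled by this difference. The members' rows were found by identifier without a measured value, but the choice of these genes, the lists and the comparisons was made with earlier results of these data known. Named genes were the members, miRNA genes within 10 kb, the nearest in abundance and distance, listed genes of at least 100 CPM (up to 8 per list) with the undetected ones, the cell type markers, and the 2 neighbouring pairs on each side. Alternatives were other totals and scalings, count minimums, both strands, hairpin length, a pseudocount, pair distances, the edgeR exact test and each replicate alone. Tools were Python 3.11.15 with matplotlib 3.10.9, pandas 2.3.3, scipy 1.17.1 and numpy 2.4.6, and R 4.3.3 with DESeq2 1.42.0 and edgeR 4.0.16.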

Additional observations from a re-analysis of the deposited data

Results flagged for a closer look

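Reads appeared in the opposite-strand column at Mir142b, a leukocyte marker gene annotated against the strand of Mir142, with 1684 counts in replicate 1 and 1151 in replicate 2, while its own strand had 0 in each. The column was used only for the strand shares and for the alternative that counts both strands, and Mir143 and Mir145a had 0 counts in it. Mir142 itself was not analysed here, and Mir142b was not detected on its own strand. The leukocyte markers that were detected, Mir155, Mir223 and Mir150, were at 336 ± 36.0, 267 ± 1.86 and 13.0 ± 0.357 CPM (SD, n = 2 each).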

How the results depend on the processing

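Levels in CPM depend on the total. Without the most abundant gene, Mir10a, in the total, Mir143 averaged 21780 CPM and Mir145a 447 CPM, and per 1000000 of all reads, tallies included, 9735 and 200.0. Each replicate alone gave 17889 to 19401 CPM for Mir143, 357 to 408 CPM for Mir145a, a share of 1.82 to 1.98% and a log2 ratio of the pair of 5.57 to 5.65. Per hairpin base the log2 ratio was 5.76. With the edgeR exact test, with a spread estimated from the same 2 libraries, the log2 ratio of replicate 1 over replicate 2 was -0.12 for Mir143 and -0.20 for Mir145a but neither was called, and 2 genes were called in all (16 at an unadjusted p below 0.05), against 185 by the binomial test. Under the other alternatives for that comparison, both members kept their direction and their call. Among pairs without shared sequence, a smaller set, the pair took place 8, and with other count minimums, distances or both strands it took place 13 to 16. No paired analysis was possible because there was 1 group. With 2 libraries, no difference between animals or conditions can be tested, and 3 counts, the limit behind a count of 0, are 0.577 CPM in replicate 1, the deeper library.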

Other observations

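Mir192 and Mir194-2, listed here as kidney tubule markers, were lower in replicate 1, as was the hepatocyte marker Mir122. Mir192 and Mir194-2 had 125 and 71.1 CPM there and 224 and 129 CPM in replicate 2. Their log2 ratios were -0.85 and -0.87, both past the exact binomial test that called 53.6% of all detected genes. Which cells supplied these reads was not tested. Mir204, also described in tubules, was at 157 CPM in replicate 1, against 136 CPM in replicate 2. Mir194-2 shares sequence with Mir194-1, so its count is uncertain. The neural markers were near 0 in both libraries, with 0 counts of Mir124a-1, Mir124a-2 and Mir124a-3. Mir9-2 had 1 and 0 counts and Mir9-3 had 6 and 7 in replicates 1 and 2. All 5 counted neural hairpins have runs of 21 bases in common with other miRNA genes, so their low counts are uncertain, and Mir9-1 was not analysed here.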
